A study of Mus musculus with 25 samples.

Results

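Of the 22439 genes in the deposited count matrices, 9 make prostaglandins and leukotrienes and are described here: Ptgs1, Ptgs2, Ptges, Hpgds, Tbxas1, Alox5, Alox5ap, Lta4h and Ltc4s. They were chosen by name, not by a measured value, and 9 of 9 had a row of counts. Their levels were followed in 4 myeloid cell types of the mouse spinal cord, in uninjured controls and at 5 time points after spinal cord injury. Controls had a laminectomy, the surgical opening of the vertebra, without injury. The level of a gene is its CPM, its count divided by all UMIs of 1 cell type in 1 library and scaled to 1000000, where a UMI marks 1 captured RNA molecule.

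Prostaglandins and leukotrienes are short-lived lipid signals made from arachidonate that phospholipases free from membranes. On the prostaglandin branch a cyclooxygenase turns arachidonate into prostaglandin H2, and a terminal synthase then sets which prostanoid is made. On the leukotriene branch 5-lipoxygenase, helped by its activating protein at the nuclear membrane, makes leukotriene A4, which is either hydrolysed to the neutrophil attractant leukotriene B4 or joined to glutathione to give leukotriene C4. Phagocytes are a main source of both families in inflamed tissue, and microglia are known for expressing the constitutive cyclooxygenase.

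The genes lie at separate places in the genome (GRCm38, GENCODE M21). Ptgs1 (chr2:36230426-36252272, plus strand) encodes the constitutive cyclooxygenase and Ptgs2 (chr1:150100031-150108227, plus strand) the inducible one. Ptges (chr2:30889471-30929863, minus strand) encodes the inducible microsomal prostaglandin E synthase, Hpgds (chr6:65117293-65144908, minus strand) the haematopoietic prostaglandin D synthase, and Tbxas1 (chr6:38875404-39084585, plus strand) thromboxane A synthase. Alox5 (chr6:116410077-116461178, minus strand) encodes 5-lipoxygenase and Alox5ap (chr5:149264767-149288153, plus strand) its activating protein. Lta4h (chr10:93453411-93484875, plus strand) encodes leukotriene A4 hydrolase and Ltc4s (chr11:50236461-50238616, minus strand) leukotriene C4 synthase. Exons of Ptgs1, Tbxas1, Alox5ap and Ltc4s overlap exons annotated on the other strand (Gm43621, Gm42962, Gm19719 and Gm26542). How the counting treated strand, and so whether reads of these pairs were separated, is not given in the sources used here.

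The series holds 25 libraries of 10x Genomics 3′ droplet RNA-seq from sorted myeloid cells, each made from 1 to 3 mice, so the library is the replicate and p-values measure only the spread between libraries. There were 2 libraries after laminectomy alone (Ctrl), and 5, 4, 7, 5 and 2 at day 1, 2, 3, 10 and 21 after injury (D1, D2, D3, D10, D21). All mice carried Cx3cr1CreERT2, an inducible Cre at the Cx3cr1 locus, which is active in microglia and in other Cx3cr1-expressing myeloid cells. In the 12 libraries called mixed, all YFP+ cells of Cx3cr1CreERT2 mice were sorted; in Cx3cr1CreERT2:R26tdTomato mice, which add a red reporter, RFP+/YFP+ cells (resident, 5 libraries) and RFP-/YFP+ cells (infiltrating, 7) were sorted apart. Sort and strain are therefore split the same way, and no age is given. The title of 1 further D3 library names the infiltrating sort while its sort label reads RFP+/YFP+. That library, D3_conflict 1, was left out of the comparisons.

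Promoter sequence is shown for 4 genes, chosen after their values were seen: Ptgs1 and Ltc4s, which fell in microglia after injury, Ptgs2, which rose at D1, and Hpgds, which was highest in microglia. Each holds a match to a motif searched, as do windows of other members that are not printed. The windows are the 250 bases before the RefSeq start (GRCm38.p6), which were found for 8 of the 9 genes. Capitals mark AGGAAGT, a core sequence bound by ETS factors, in Ptgs1, Hpgds and Ltc4s, and TTGCNCAA, a C/EBP site, in Ptgs2. Only bases that no annotated exon covers are printed for Ptgs1 and Ltc4s, and 30 bases around the match for Hpgds and Ptgs2. In the Hpgds window only the first 72 bases lie before an annotated exon, and in the Ptgs2 window 0 do. The Hpgds stretch lies inside the annotated span of the gene given above.
Ptgs1, chr2:36230176-36230425, plus strand: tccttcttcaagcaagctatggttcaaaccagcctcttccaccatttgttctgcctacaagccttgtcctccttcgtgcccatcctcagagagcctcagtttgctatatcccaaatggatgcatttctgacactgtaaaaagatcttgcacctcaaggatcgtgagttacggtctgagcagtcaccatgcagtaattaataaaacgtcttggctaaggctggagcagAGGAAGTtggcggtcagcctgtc
Ltc4s, chr11:50238617-50238782, minus strand: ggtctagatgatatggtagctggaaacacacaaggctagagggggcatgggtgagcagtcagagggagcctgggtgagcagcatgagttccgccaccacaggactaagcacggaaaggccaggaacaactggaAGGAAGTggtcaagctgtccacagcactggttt
Hpgds, chr6:65144760-65144789, minus strand: cttttaggtggAGGAAGTggcctctggctg
Ptgs2, chr1:150099951-150099980, plus strand: cgctgcggttcTTGCGCAActcactgaagc

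With the base before the start counted as -1, AGGAAGT began at -23 in Ptgs1, -48 in Hpgds and -117 in Ltc4s. It was found on either strand in these 3 of 8 windows, and in 7.69% of the 32851 mouse windows of the same length. This motif was chosen after the sequences had been seen. The C/EBP match in Ptgs2 began at -69, and 2.61% of all windows hold one. GGGA followed by 4 free bases and CC (NF-kB, 17.6% of all windows) matched once in Alox5 and at 2 places in Lta4h, TGANTCA (AP-1, 6.75%) matched once in Tbxas1, and TATAAA (12.4%) at 2 places in Tbxas1. Ptges held none of these letters. Binding was not measured, and a match is only a description of the sequence.

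Between 155 and 3800 cells, with 486649 to 33204422 UMIs, came from each library. The deposited cell type codes were named from marker genes: microglia (13289 cells, 9 of 9 microglia markers raised), macrophages including monocytes (12841 cells, 6 of 9 macrophage and 4 of 8 monocyte markers), dendritic-like cells (2712 cells, 6 of 8 dendritic markers beside 3 of 8 monocyte markers) and neutrophil-like cells (2116 cells, 7 of 7). Median UMIs per cell were 3062, 9144, 11361 and 2154 in that order. Control libraries held microglia alone. Mast cells also make prostaglandin D2 and leukotriene C4, and their 7 markers summed to 0.291 CPM in microglia (Mcpt4, Fcer1a and Ms4a2 at 0), 1.02 in macrophages (Mcpt4 at 0), 32.1 in dendritic-like cells (Mcpt4 and Tpsb2 at 0) and 5.19 in neutrophil-like cells (Cpa3, Mcpt4, Tpsb2, Fcer1a and Ms4a2 at 0). Of these 7 mast cell markers only Kit was raised in dendritic-like cells. Across libraries 127 barcodes recur (254 of 30958 cells), and no doublet caller was run.

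The first comparison asked which cell type carries which enzyme. Hpgds and Tbxas1, the prostaglandin D and thromboxane synthases, were highest in microglia. Ptgs1 and Ltc4s, constitutive cyclooxygenase and leukotriene C4 synthase, were high in microglia and in neutrophil-like cells, whose difference did not pass for either gene with all sums. Alox5, or 5-lipoxygenase, was highest in neutrophil-like cells, and Alox5ap, its activating protein, was abundant in all 4 types. Macrophages were lower than microglia for Ptgs1, Hpgds, Tbxas1, Alox5 and Ltc4s (5 of 9 members, against 16.3% of all genes) and higher for Alox5ap and Ptges (2 of 9, against 16.4%). Inducible Ptgs2 and Ptges were scarce in every type. Between macrophages and microglia 7 of 9 members were called by edgeR with library as a block (adjusted p under 0.05), as were 32.7% of the 11137 genes tested. The types were assigned from expression, so these tests are not independent of the grouping. With a captured RNA, fewer cells that express it and less RNA per cell cannot be told apart in such sums.

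Ptgs1 was lowest at 54.5, median 216 and highest at 798 CPM over 19 microglial sums. In macrophages it was 2.43, 17.0 and 72.7 CPM (19 sums), and in dendritic-like cells 3.1, 5.19 and 41.8 CPM (9 sums). The 4 neutrophil-like sums lay at 127, 159, 166 and 363 CPM, above every macrophage and dendritic-like sum. Macrophages were at -3.59 ± 0.33 (log2 change ± SE) against microglia (edgeR adjusted p = 2.05e-10), and lower in 13 of 14 libraries that hold both. Neutrophil-like cells were above macrophages by 4.43 ± 0.55 (adjusted p = 1.09e-07, higher in 4 of 4 libraries). The order was microglia and neutrophil-like cells, then macrophages and dendritic-like cells. Within these pairs the differences did not pass (0.84 ± 0.59, adjusted p = 0.243, and -0.81 ± 0.45, adjusted p = 0.206). In sums of at least 50 cells neutrophil-like cells exceeded microglia by 1.42 (adjusted p = 0.0173), but no library then holds both types and the value comes through the other types. In D2_mixed 2, the 1 library with both, Ptgs1 was lower in neutrophil-like cells (166 against 318 CPM).

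Ptgs2 had a median of 0 CPM in microglia (highest 8.55) and in dendritic-like cells (highest 4.53), and of 0.631 CPM in macrophages (highest 68.7). The 4 neutrophil-like sums were at 4.38, 18.3, 19.0 and 31.2 CPM, from 3, 8, 27 and 3 counts. They exceeded dendritic-like cells by 3.68 ± 0.90 log2 units (adjusted p = 0.00161, higher in 4 of 4 libraries). Their difference from microglia was 2.67 ± 1.09 (edgeR adjusted p = 0.0463). It did not pass with DESeq2 (2.93, adjusted p = 0.0565), in sums of at least 50 cells (3.04, 0.0623) or in D1 to D3 libraries alone (1.49, 0.115). Nor did it pass without microglial cluster 2 and macrophage clusters 2 and 3 (2.04, 0.118). It was also lost in 5 of 19 fits that left out 1 library, such as D21_mixed 1 (1.57, adjusted p = 0.125). A single library holds both types. Dendritic-like cells lay below macrophages, at -2.63 ± 0.74 (adjusted p = 0.00929, lower in 7 of 9 libraries), a call lost with DESeq2 (-1.64, adjusted p = 0.18) or without D3_infiltrating 1 (-2.30, adjusted p = 0.0695). Between macrophages and microglia the change of 1.62 ± 0.78 did not pass (adjusted p = 0.115).

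Among the terminal synthases, Ptges was rare: medians were 0.257 CPM in microglia, 1.43 in macrophages, 0.238 in dendritic-like and 0 in neutrophil-like cells, with a maximum of 24.3 CPM in a macrophage sum. Macrophages exceeded microglia by 1.64 ± 0.59 log2 units (adjusted p = 0.0326, higher in 7, lower in 3 and equal in 4 libraries), a call lost with sums of at least 50 cells (1.21, adjusted p = 0.184), with DESeq2 (1.43, adjusted p = 0.0661) or without D1_mixed 1 (1.24, adjusted p = 0.116), D2_mixed 2 (1.61, 0.0536) or D2_resident 1 (1.40, 0.103). Dendritic-like cells lay at -2.25 ± 0.64 against macrophages (adjusted p = 0.00924), and the call was lost without D1_infiltrating 1 (-2.01, 0.0562) or D1_infiltrating 2 (-1.85, 0.0586). Most sums held under 10 counts of this gene.

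Hpgds had a lowest, median and highest level of 107, 206 and 627 CPM in microglia, 5.31, 63.5 and 165 in macrophages, 2.59, 27.8 and 72.7 in dendritic-like cells, and 0, 0, 9.84 and 31.2 CPM in the 4 neutrophil-like sums. Macrophages stood at -1.40 ± 0.26 log2 units against microglia (adjusted p = 5.42e-05, lower in 13 of 14 libraries). In D10 and D21 libraries alone the difference was -1.07 and did not pass (adjusted p = 0.11). Macrophages, dendritic-like and neutrophil-like cells did not differ from each other past the threshold, although the dendritic-like difference of -0.80 ± 0.34 came near it (adjusted p = 0.0828). That difference passed without D1_infiltrating 1 (-0.98, adjusted p = 0.0447) or D3_infiltrating 1 (-0.99, 0.0464). Neutrophil-like cells stood at -1.08 against macrophages (adjusted p = 0.193), at -3.08 without D1_infiltrating 2 (0.0119) and at -2.45 at equal depth (0.0372). The Tbxas1 levels were 72.2, 140 and 258 CPM in microglia, 21.2, 64.5 and 97.6 in macrophages, and 29.6, 51.5 and 91.5 in dendritic-like cells. In the neutrophil-like sums Tbxas1 was at 0, 0, 2.92 and 7.73 CPM, below every sum of another type. Macrophages were at -1.34 ± 0.17 against microglia (adjusted p = 7.64e-08, lower in 13 of 14 libraries), and neutrophil-like cells at -3.82 ± 0.45 against macrophages (adjusted p = 3.39e-08, lower in 4 of 4). Macrophages and dendritic-like cells differed by -0.20 ± 0.20, which did not pass (adjusted p = 0.533).

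Alox5, the enzyme that starts leukotriene synthesis, was at 41.6, 82.9, 111 and 119 CPM in the 4 neutrophil-like sums, above every sum of another type. It ran from 0 over a median of 11.9 to 29.6 CPM in microglia, from 0 over 0.936 to 6.12 in macrophages, and from 0 over 7.96 to 11.2 in dendritic-like cells. Neutrophil-like cells exceeded macrophages by 6.46 ± 0.46 log2 units (adjusted p = 3.80e-12, higher in 4 of 4 libraries) and dendritic-like cells by 4.04 ± 0.43 (adjusted p = 6.93e-09). They exceeded microglia by 3.95 ± 0.59 (adjusted p = 2.34e-06), although not after thinning to equal depth (2.34, adjusted p = 0.129). Macrophages lay below microglia, at -2.51 ± 0.38 (adjusted p = 3.04e-06, lower in 13 and equal in 1 of 14 libraries; -1.83 and 0.06 at equal depth). Dendritic-like cells exceeded macrophages by 2.42 ± 0.39 (adjusted p = 1.28e-05), and at equal depth the difference was 0.18 (adjusted p = 0.922). Dendritic-like cells and microglia were not told apart (-0.09 ± 0.63, adjusted p = 0.951).

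Alox5ap, without which the enzyme makes little leukotriene in cells, was found in every sum of every type. Its lowest, median and highest levels were 181, 528 and 775 CPM in microglia, 269, 890 and 1445 in macrophages and 914, 1104 and 1436 in dendritic-like cells. The neutrophil-like sums were at 1414, 1466, 3001 and 5345 CPM, and 3 of them lay above every sum of another type. Macrophages exceeded microglia by 0.82 ± 0.18 log2 units (adjusted p = 5.15e-04) and did so in 14 of 14 libraries. Neutrophil-like cells exceeded macrophages by 1.13 ± 0.31 (adjusted p = 0.00279, higher in 4 of 4 libraries), a call lost without D2_infiltrating 1 (0.64, adjusted p = 0.0625), the library at 5345 CPM. Macrophages and dendritic-like cells were not told apart (0.27 ± 0.21, adjusted p = 0.397).

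The last pair of enzymes competes for leukotriene A4. Lta4h had medians of 23.2, 24.3, 34.3 and 25.4 CPM in microglia, macrophages, dendritic-like and neutrophil-like cells. Of the 6 comparisons only that of dendritic-like cells with microglia passed (0.75 ± 0.27, adjusted p = 0.0373), and it was lost without D10_mixed 1 (0.63, 0.0688), D2_infiltrating 1 (0.74, 0.0543) or D2_mixed 2 (0.62, 0.124), with no filter (0.71, 0.0568) and in D10 and D21 libraries alone (0.56, 0.634). In D1 to D3 libraries alone dendritic-like cells also exceeded macrophages (0.67, adjusted p = 0.00142) and neutrophil-like cells, which stood at -0.77 against them (adjusted p = 0.00894). Macrophages exceeded microglia without D10_infiltrating 2 (0.50, adjusted p = 0.037). Ltc4s, by contrast, differed widely. It was at 53.3, 361 and 647 CPM (lowest, median, highest) in microglia, 0, 36.9 and 189 in macrophages, 6.51, 24.96 and 140 in dendritic-like cells, and 11.7, 55.5, 156 and 171 CPM in the 4 neutrophil-like sums. Macrophages were at -2.94 ± 0.33 against microglia (adjusted p = 1.21e-08), lower in 14 of 14 libraries. Neutrophil-like cells exceeded macrophages by 3.00 ± 0.61 (adjusted p = 1.48e-04, 4 of 4 libraries). Microglia and neutrophil-like cells (0.06 ± 0.60, adjusted p = 0.949) and macrophages and dendritic-like cells (0.68 ± 0.42, adjusted p = 0.261) were not told apart. The first of these values comes mostly through the other types: in D2_mixed 2, the 1 library with both, Ltc4s was at 156 CPM in neutrophil-like cells and 385 in microglia, and the medians over all sums were 106 and 361 CPM. The second difference changed with the libraries used: it was 1.57 in D1 to D3 libraries alone (adjusted p = 0.00495), 1.5 in sums of at least 50 cells (0.0118), -0.13 at equal depth (0.917) and -1.41 in D10 and D21 libraries alone (0.119).

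The other counts of members called were 3 of 9 between dendritic-like cells and macrophages (25.7% of all genes), 5 between neutrophil-like cells and macrophages (47.0%), 6 between dendritic-like cells and microglia (26.1%), 5 between neutrophil-like cells and microglia (48.7%) and 6 between neutrophil-like and dendritic-like cells (48.5%). Where neutrophil-like cells are compared, the members' counts are thus close to the share of all genes. Of all genes called, 39.9% were higher in neutrophil-like cells than in macrophages, and 50.7% with median-of-ratios scaling. Against microglia 42.1% were higher, and 52.9% with DESeq2. For dendritic-like cells against microglia it was 45.5%, and 55.8% when scaled by total UMIs. No member that passed changed direction under these scalings. The plot of levels by cell type shows the same values on a log2 scale.

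**Figure D1:**
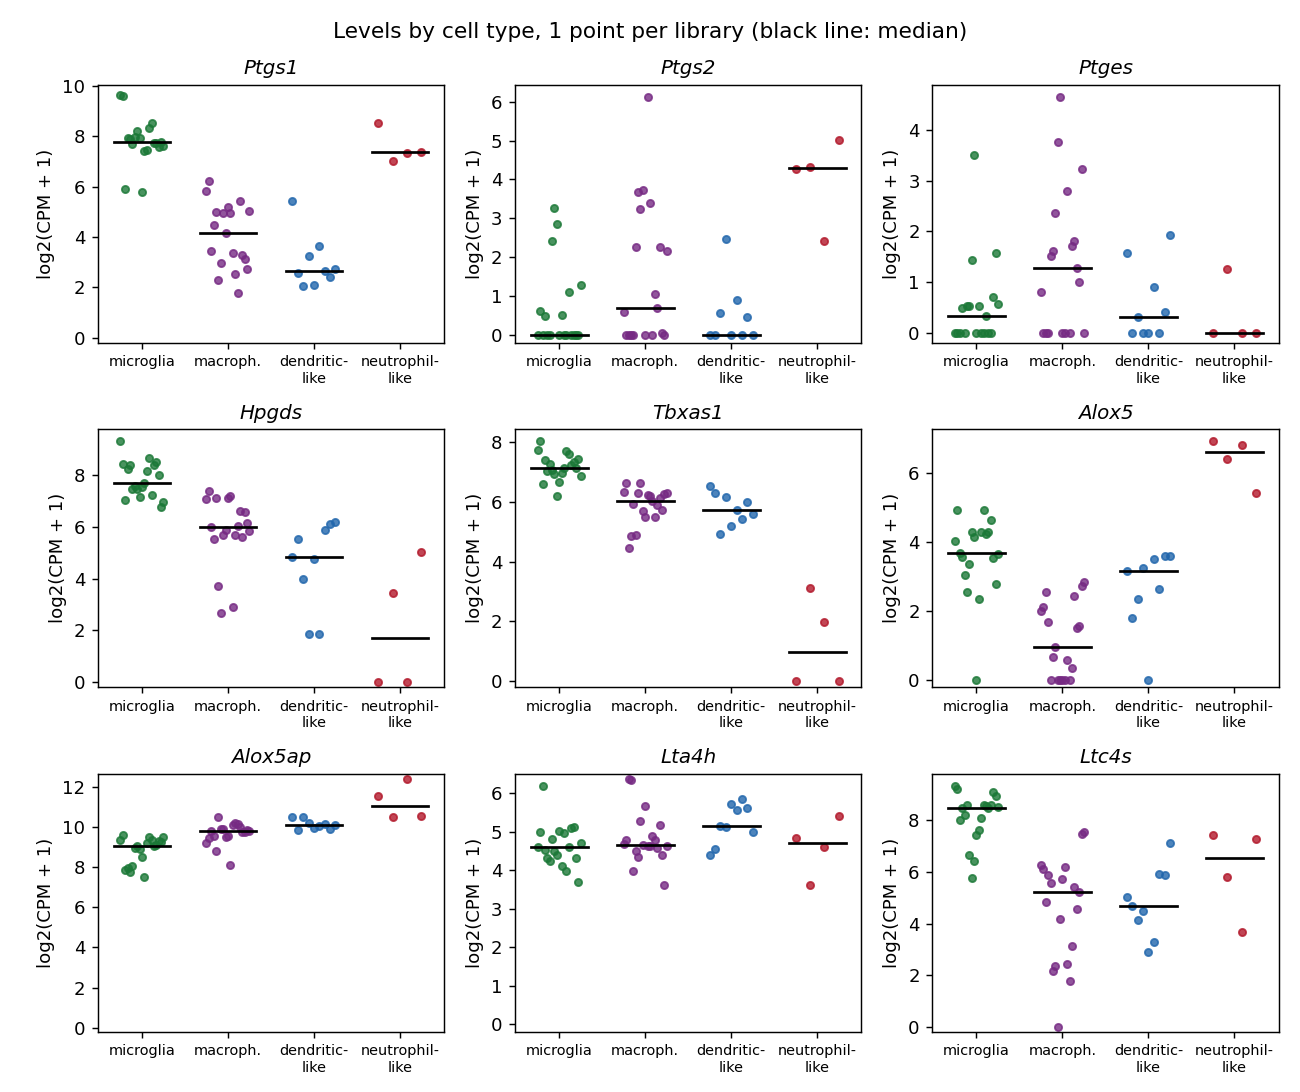
Level of each gene as log2(CPM + 1) by cell type, 1 point per library with at least 20 cells of that type, and a black line at the median. The points for Ptgs1 and Ltc4s in microglia lie above nearly all those of macrophages, and the 4 neutrophil-like points for Alox5 lie above all others.

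The second question was how microglia changed after injury. Ptgs1 fell at D1, D2, D3 and D10, and its lowest level was in the single D21 library. Ltc4s fell at D1 and was higher at D3 and D10 than at D1. Alox5ap fell late, at D10, and its lowest level was also in the single D21 library. Ptgs2 and Ptges were higher at D1, at few counts that for Ptges came mostly from 1 library, and were lower again by D10. All D1 libraries used here are male, mixed and from 1 sequencing pool that holds no control. Changes against or from D1 therefore cannot be told apart from pool. At D1 against Ctrl 4 of 9 members passed, against 46.6% of the 10801 genes tested, which is a similar share. The count was 1 at D2 (29.7% of all genes), 1 at D3 (37.6%), 2 at D10 (10.3%) and 2 at D21 (6.98%).

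Ptgs1 was at 798 and 771 CPM in the 2 control libraries. It was at 252, 293 and 240 CPM at D1, 362, 175 and 318 at D2, 216, 195, 210, 211 and 189 at D3, 208, 240 and 237 at D10, and 172 in the single D21 library. Both controls stand above all 15 injured libraries, which lie close together. The changes were -0.99 ± 0.26 log2 units at D1 (edgeR adjusted p = 0.00462), -1.19 ± 0.25 at D2 (0.00218), -1.44 ± 0.22 at D3 (1.44e-04), -1.25 ± 0.24 at D10 (0.00256), and -1.22 ± 0.35 (0.0415) in the single D21 library. With sequencing pool as a term the change was -0.73 at D2 (adjusted p = 0.0786) and -0.88 at D3 (0.325). Without Ctrl_mixed 1 it was -1.0 at D2 (0.0569) and -1.05 at D10 (0.0822), and the D21 call was lost in 10 of 16 fits that left out 1 library.

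Ptgs2, induced by inflammatory signals in many cells, had 0 and 1 counts in the controls (0 and 0.539 CPM). At D1 it had 20, 30 and 27 counts (4.38, 8.55 and 6.27 CPM), from 13, 17 and 14 cells of 1197, 790 and 1321. At D2 it was at 1.15, 0 and 0 CPM, at D3 at 1.44 CPM in D3_resident 2 and 0 in the other 4 libraries, at D10 at 0, 0.409 and 0 CPM, and at D21 at 0.435 CPM. The 3 D1 libraries stand above all others. The D1 to Ctrl ratio of summed counts was 46.3 (95% interval 8.07 to 1853, counting error only). Here and below, an adjusted p beside such a ratio belongs to the fit and does not test the ratio. For D1 against Ctrl the edgeR adjusted p was 0.0194, at a fitted log2 change of 4.10. The call was lost without cluster 2 (adjusted p = 0.0932), where the fitted log2 change was 3.57 against 4.10 with all clusters. Without Ctrl_resident 1, or in mixed libraries alone, the change could not be estimated, and the control that remained in these fits had 0 counts. The D1 call for Ptgs2 thus rests on a fit that includes Ctrl_resident 1, the male control with 1 count. Against D1, the ratio at D3 was 0.0920 (0.0186 to 0.279; adjusted p = 0.0129) and at D10 0.0281 (0.00335 to 0.105; adjusted p = 0.00215). The fitted D3 change of -3.44 became -3.19 without D1_mixed 2 (0.0529) and -2.79 without cluster 2 (0.0954), and neither passed. In D1 microglia 28 of the counts came from 916 cells of cluster 2 and 49 from 2316 cells of cluster 5.

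Ptges, which acts next after Ptgs2 in making prostaglandin E2, had no count in 1887 control cells. At D1 it had 2, 6 and 45 counts (0.438, 1.71 and 10.4 CPM), so D1_mixed 3 held most of them, in 32 cells. Later libraries lay between 0 and 1.99 CPM. Summed over libraries, D1 was at least 10.6-fold higher than Ctrl at a floor of 3 counts (adjusted p = 0.0076). Without D1_mixed 3 the limit was 2.46-fold, from 8 counts, and Ptges did not reach the filter for testing. The call was lost without Ctrl_mixed 1 (0.0565) and without Ctrl_resident 1 (0.053), and in mixed libraries alone the change could not be estimated. Against D1 the D10 ratio was 0.0613 (0.0123 to 0.189; adjusted p = 0.0138), lost without D10_mixed 2 (0.0873), without cluster 2 (0.056) and in mixed libraries alone (0.0505). Without D1_mixed 3 that ratio was 0.265 (0.0453 to 1.10), with no test. At D3 the ratio was 0.134 and did not pass (adjusted p = 0.0686). Of the D1 counts 32 came from cluster 2, at 16.7 CPM, and 18 from cluster 5, at 1.76 CPM.

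Hpgds was at 627 and 341 CPM in controls, 191, 173 and 139 at D1, 147, 284 and 400 at D2, 107 to 365 at D3, 176, 303 and 337 at D10, and 206 at D21. Every injured library except D2_mixed 2 and D3_mixed 2 lay below both controls, and the controls lay far apart. No change passed, with -1.01 ± 0.52 at D1 (adjusted p = 0.116). It passed without Ctrl_resident 1 (-1.77, adjusted p = 0.0396). Tbxas1 was at 211 and 258 CPM in controls, 132, 122 and 72.2 at D1, 191, 139 and 207 at D2, 115 to 171 at D3, 154, 166 and 130 at D10, and 123 at D21. All injured libraries lay below the controls in CPM, yet no change passed, with -0.42 ± 0.27 at D1 (adjusted p = 0.207) and values from -0.12 to -0.02 later.

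Alox5 ran from 4.14 to 29.6 CPM. It was at 15.4 and 29.1 CPM in controls, and the ranges at D1, D2 and D3 overlapped these. The D10 libraries (4.88 to 10.8 CPM) and the D21 library (4.14 CPM) lay below both controls. The change of -1.02 ± 0.40 at D10 did not pass (edgeR adjusted p = 0.126). Alox5ap was at 651 and 775 CPM in controls, 498, 528 and 471 at D1, 655, 583 and 718 at D2, and 521 to 706 at D3. It was at 260, 244 and 215 CPM at D10 and 181 at D21, below all 13 earlier libraries. The changes from Ctrl were -0.99 ± 0.21 for D10 (adjusted p = 0.00517; lost without Ctrl_resident 1, -0.88 and 0.111, and in mixed libraries alone, -0.99 and 0.322) and -1.08 ± 0.31 for D21 (0.0426; lost in 12 of 16 fits that left out 1 library). Against D1 the D10 change was -1.18 ± 0.20 (adjusted p = 5.50e-04), and it passed whichever library was left out.

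Lta4h lay between 11.9 and 33.8 CPM in all 17 libraries, and no change passed. Ltc4s was at 647 and 599 CPM in controls and at 99.1, 53.3 and 85.4 CPM at D1. It was at 382, 275 and 385 at D2, 488, 370, 355, 392 and 546 at D3, 389, 361 and 296 at D10, and 197 at D21. The D1 libraries are the 3 lowest of all 17, and the D2 to D10 libraries lie between them and the controls. The D1 libraries share their sequencing pool with the D21 library and with no control, and no pool term could be fitted at D1. The D1 change was -2.23 ± 0.28 (adjusted p = 1.82e-05) and passed in every fit that left out 1 library, in mixed libraries alone and at equal depth. Against D1, Ltc4s rose by 2.29 ± 0.24 at D3 (adjusted p = 1.87e-05) and by 1.98 ± 0.25 at D10 (adjusted p = 6.76e-05). At D3 and D10 it did not differ from Ctrl past the threshold (0.06 ± 0.25, adjusted p = 0.876, and -0.25 ± 0.26, adjusted p = 0.615). Among all genes 18.8% passed between D3 and D1, where 2 members did, and 33.7% between D10 and D1, where 4 did.

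**Figure D2:**
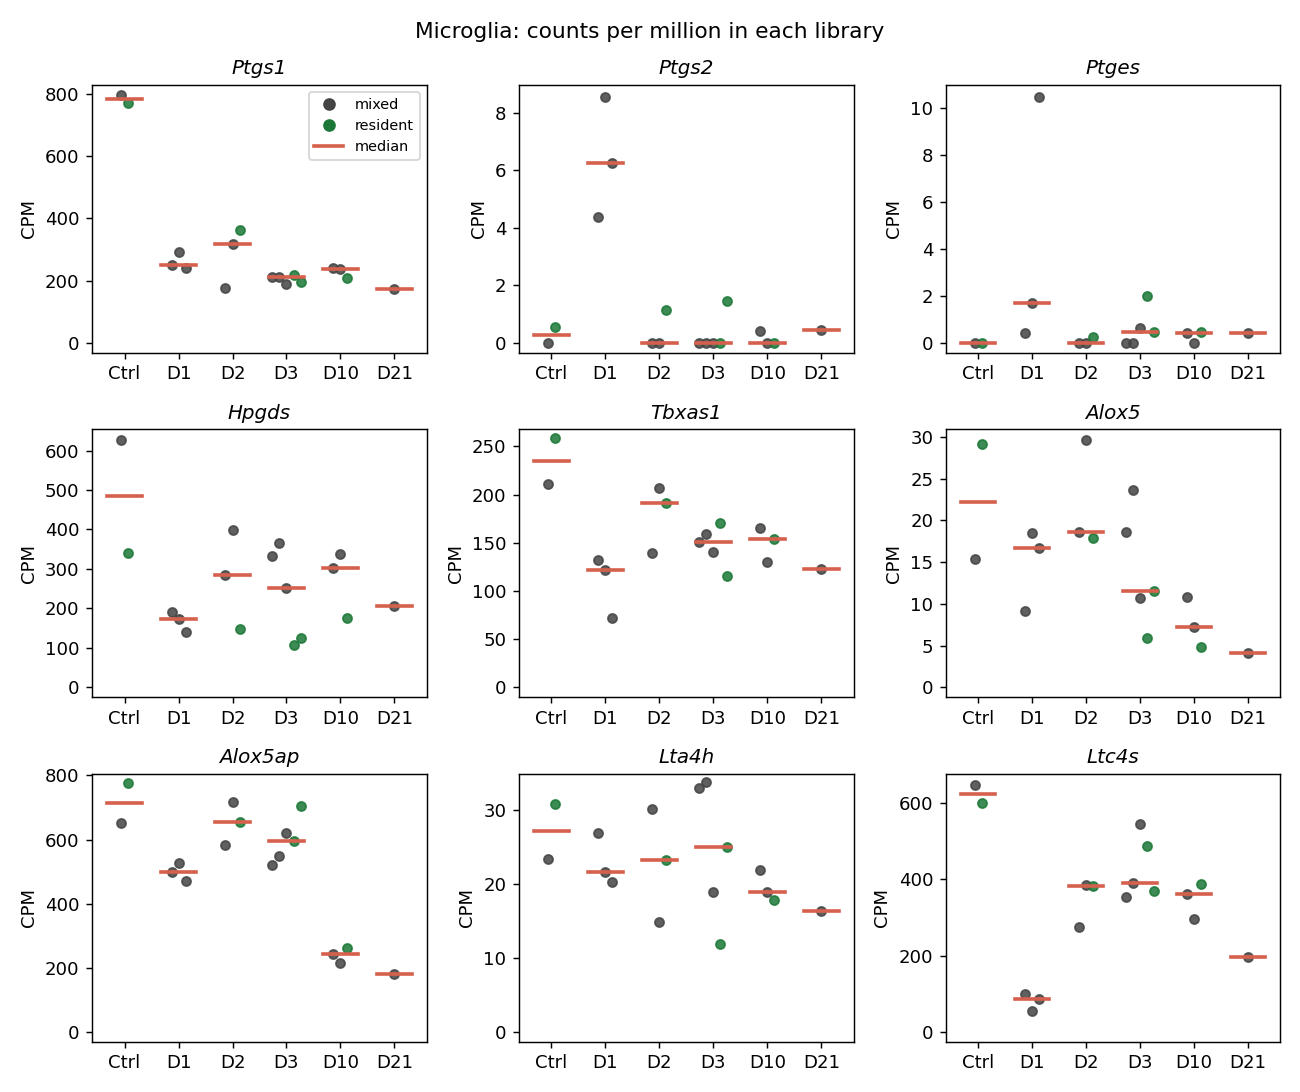
CPM of each gene in microglia by time point, 1 point per library coloured by sort, with a line at the median. Ptgs1 drops from about 800 CPM in controls in all injured libraries, Ltc4s is lowest at D1 and Alox5ap is lowest at D10 and D21.

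These changes depend on the scaling. TMM, the scaling used, gave control libraries factors of 1.38 and 1.46 and injured ones 0.771 to 1.28. Scaled by total UMIs alone, the median of all genes against Ctrl moved to -0.73 for D1, -0.40 for D2, -0.62 for D3, -0.60 for D10 and -0.94 for D21. The share of called genes that were higher went from 51.2% to 22.6% (D1), 59.1% to 32.6% (D2), 53.3% to 22.9% (D3), 78.4% to 18.6% (D10) and 87.7% to 14.7% (D21). With DESeq2 it was 67.7% at D10 and 73.6% at D21. Against D1 it went from 45.9% to 60.8% at D3. Under total UMIs the members called were 7 at D1, with Hpgds (-1.75, adjusted p = 0.00957), Tbxas1 (-1.15, 0.00291) and Alox5ap (-0.54, 0.0425) added. Alox5ap at D1 was 0.19 under TMM, so its sign turned. Relative to the shifted median, the change of Ptgs1 at D1 (-1.71 against -0.73) and of Ltc4s (-2.95) stayed below it, and Alox5ap lay above it. The members called under TMM kept their direction.

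**Figure D3:**
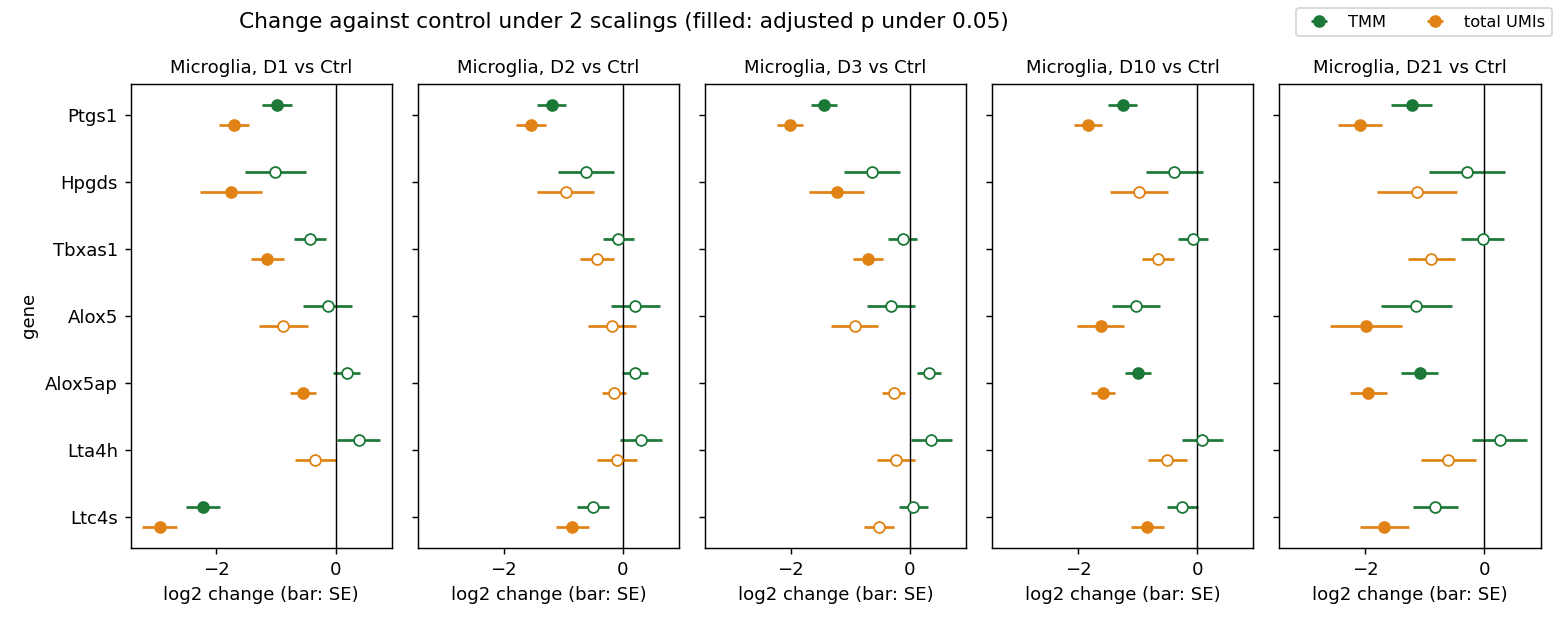
Change of the 7 more abundant genes in microglia against Ctrl under TMM and under scaling by total UMIs, as log2 change with its SE, filled where the adjusted p is under 0.05. Every total-UMI value lies to the left of its TMM value, and Ptgs1 is filled in all panels under both.

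Microglia of different condition also differ in identity genes. The 9 microglia markers summed to 26227 and 28941 CPM in controls, 4205 to 7680 at D1, 5677 to 11670 at D2, 9196 to 12433 at D3, 12578 to 14554 at D10 and 10103 at D21. Ptgs1 and Ltc4s move with this list between Ctrl and D1. Summed monocyte and macrophage markers were higher after injury in the same microglial sums. The 8 monocyte markers summed to 8.22 and 21.6 CPM in controls, 186 to 475 at D1, 362 to 555 at D2, 155 to 663 at D3, 227 to 282 at D10 and 247 at D21. The 9 macrophage markers summed to 799.6 and 926 CPM in controls, 3056 to 3913 at D1, 2101 to 2693 at D2, 3550.3 to 5192 at D3, 4898 to 5950 at D10 and 8394 at D21. Platelet and neutrophil markers were lower after injury. The 6 platelet markers summed to 62.6 and 65.6 CPM in controls, 8.83 to 14.4 at D1 and at most 16.9 later. The 7 neutrophil markers summed to 199 and 219 CPM in controls, 38.1 to 103 at D1, 28.1 to 62.2 at D2, 37.6 to 78.0 at D3, 103 to 150 at D10 and 78.1 at D21. The part of these lists in the microglial changes, including those of Ptgs2 and Ptges, was not tested.

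The third question was how macrophages changed between D1 and later, in mixed and infiltrating libraries. Ltc4s rose at D10 and D21, from low levels at D1, and was the 1 member called by edgeR at either time. Against D1 no gene passed at D2 or D3 (0.00% of 8577 genes in edgeR; 123 and 612 genes at an unadjusted p under 0.05, and 0 and 5 by DESeq2). At D10 14.4% of all genes passed and at D21 3.56%. Alox5 was too low to be tested here, so 8 of 9 members were.

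Ltc4s in macrophages was at 3.44, 4.06, 0 and 17.0 CPM at D1 (52, 65, 0 and 7 counts) and at 4.42, 2.39 and 7.82 CPM at D2. It was at 22.6 and 36.9 CPM at D3, 75.8, 67.8, 27.7 and 57.7 at D10 and 51.5 and 71.7 at D21. All D10 and D21 libraries lie above all D1 and D2 libraries. The D10 change was 3.61 ± 0.62 log2 units (adjusted p = 0.00324), and in mixed libraries alone 2.21 (adjusted p = 0.0611). The D21 change was 3.85 ± 0.71 (adjusted p = 0.0141). It was lost without D1_infiltrating 2 (3.68, 0.0583), D21_infiltrating 1 (4.32, 0.0896) or D21_mixed 1 (3.25, 0.0643), in mixed libraries alone (5.11, 0.26), with pool as a term (3.46, 0.0774) and without clusters 2 and 3 (3.17, 0.104). The D3 change of 2.72 ± 0.66 did not pass (adjusted p = 0.644).

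Clusters 2 and 3 lie mostly in microglia but hold some macrophages: 0.788% and 0.265% of macrophage cells in the D1 infiltrating libraries, 32.1% and 37.0% in the D1 mixed libraries, 10.9% to 60.3% at D10, and 46.1% and 92.3% at D21. The 9 microglia markers in macrophages summed to 304 to 1250 CPM at D1, 310 to 733 at D2, 741 to 1001 at D3, 857 to 3163 at D10 and 2088 to 4038 at D21, with 9 of 9 detected at D1 and D10. The 7 markers of border macrophages, which line vessels and meninges, summed to 610.3 to 7339 CPM at D1, 874 to 1886 at D2, 719 to 973 at D3, 112 to 535 at D10 and 86.6 to 394 at D21. Without clusters 2 and 3 the D10 call for Ltc4s held. In resident-sorted libraries, which were not in the fit, Ltc4s in macrophages was at 41.7 CPM at D2, 177 and 189 at D3 and 46.4 at D10. The part of these lists in the result was not tested.

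The cyclooxygenases in macrophages changed less clearly. Ptgs1 was at 3.83, 6.74, 29.7 and 17.0 CPM at D1 and 55.8, 72.7, 9.76 and 21.1 at D10, where the infiltrating libraries were high and the mixed ones were within the D1 range. Its change of 2.12 ± 0.73 just missed the threshold (adjusted p = 0.0652; 0.0368 with DESeq2). Ptgs2 was at 3.77, 11.9, 8.47 and 12.2 CPM at D1, and at D10 only D10_infiltrating 1 had counts (2 counts, 0.496 CPM). The D10 to D1 ratio of summed counts was 0.0407 (0.00490 to 0.148). The fits gave an adjusted p of 0.0549 with edgeR and 0.0283 with DESeq2. At D21 Ptgs2 was at 0 and 68.7 CPM, and all 23 counts of the high library, D21_mixed 1, came from 1 cell of cluster 14. Ptges was at 2.05, 4.18, 12.7 and 24.3 CPM at D1 and 0.743, 0, 0 and 0 at D10. Its ratio of summed counts was 0.140 (0.0284 to 0.419), and the fits gave an adjusted p of 0.0545 with edgeR and 0.00563 with DESeq2.

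Of the other members in macrophages, Hpgds was at 12.2, 5.31, 50.8 and 58.4 CPM at D1, 133, 165, 63.5 and 45.5 at D10 and 138 and 146 at D21, where both libraries exceed all D1 values. Its changes were 2.23 ± 0.83 at D10 (adjusted p = 0.0853) and 2.94 ± 0.97 at D21 (0.0984), and both passed with DESeq2 (0.0308 and 0.0292). Tbxas1 stayed between 21.2 and 97.6 CPM with changes from -0.28 to 0.03. Alox5ap was at 1445, 947, 932 and 730 CPM at D1, 587, 698, 890 and 753 at D10 and 741 and 269 at D21, and no change passed. Lta4h was at 21.7, 19.2, 38.1 and 24.3 CPM at D1 and 24.8, 26.5, 81.4 and 79.9 at D10, with both mixed libraries high, and its change was 1.05 ± 0.34 (adjusted p = 0.0554; 0.0254 with DESeq2). Alox5 lay between 0 and 0.936 CPM at D1 and between 2.22 and 4.88 at D10, from 2 to 12 counts. DESeq2 thus called 6 members at D10, against 1 in edgeR. Scaled by total UMIs, the share of called genes that were higher at D21 went from 54.8% to 44.4%.

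**Figure D4:**
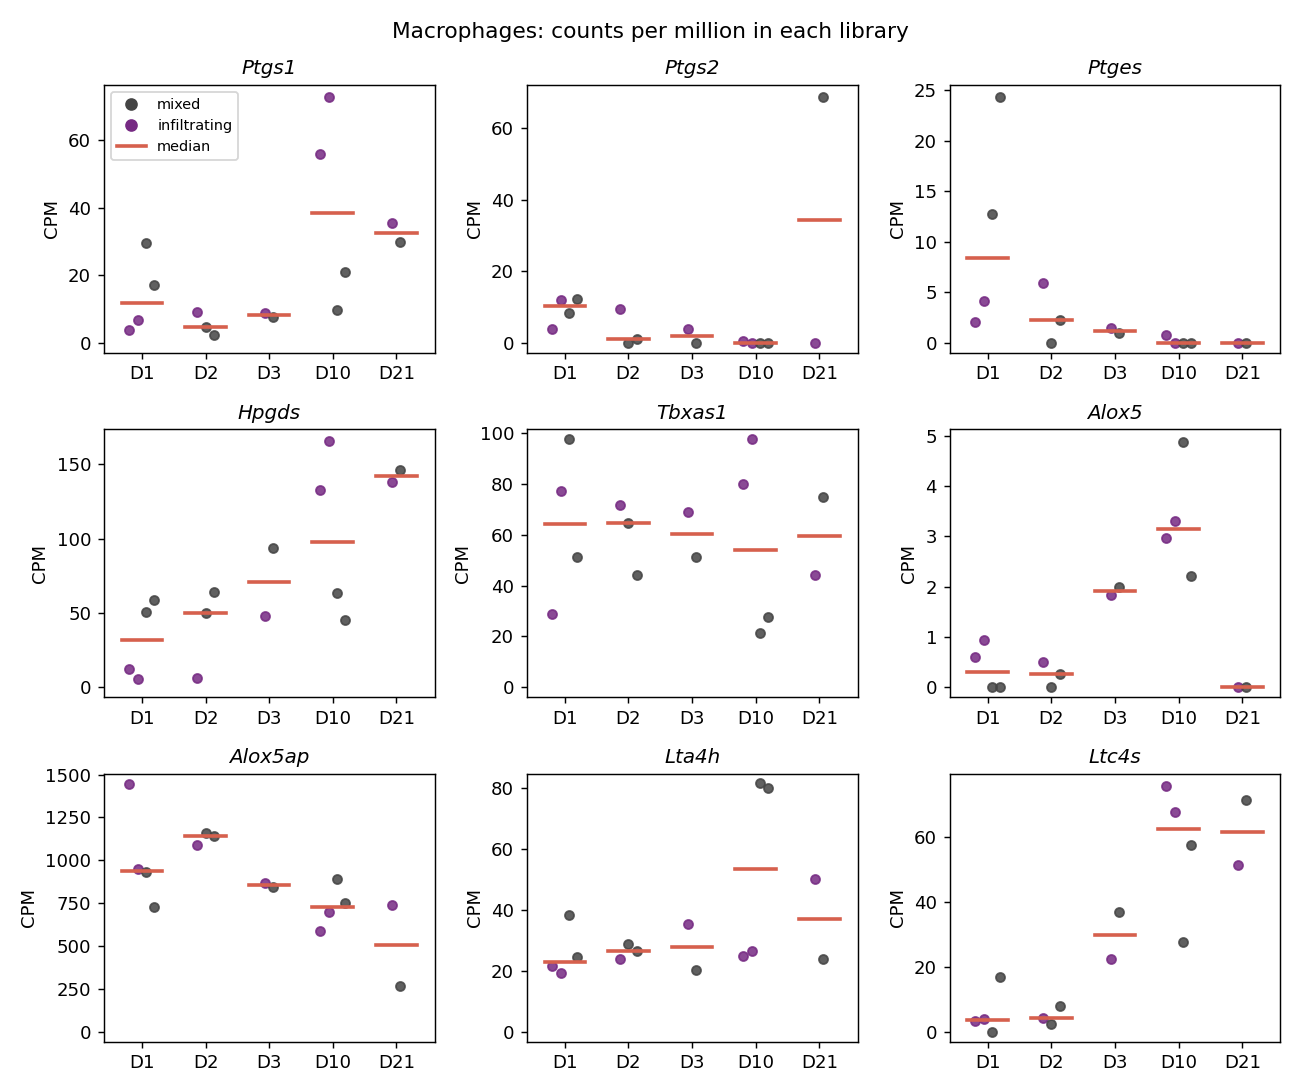
CPM of each gene in macrophages by time point, 1 point per library coloured by sort, with a line at the median. Ltc4s climbs from at most 17.0 CPM at D1 to 27.7 to 75.8 CPM at D10, and the 68.7 CPM point of Ptgs2 at D21 is 1 library.

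Whether the time course differed between macrophages and microglia was tested in libraries that hold both, with library as a block. No member passed, for D10 against D1 (6.53% of 9596 genes passed) or D3 against D1 (0.0834%). The D1 side rests on 2 libraries with 28 and 54 macrophage cells, of which 32.1% and 37.0% lie in clusters 2 and 3. The member nearest to it was Alox5ap at D10, where the macrophage change exceeded that of microglia by 1.03 ± 0.37 log2 units (adjusted p = 0.0941). A difference in time course between the cell types is thus not shown for any member.

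Levels in the 16 deposited clusters, summed over libraries, are given as a description, since clusters were made from the same counts. Cluster 1, which holds the 1887 control microglia, was highest for Ptgs1 (791 CPM), Hpgds (556), Tbxas1 (223) and Ltc4s (635). In the other microglial clusters Ltc4s ran from 90.2 CPM in cluster 2 and 147 in cluster 5, which hold most D1 microglia, to 437 in cluster 4. The macrophage clusters 8 to 13 lay between 5.83 and 44.4 CPM for Ltc4s and between 3.69 and 19.1 for Ptgs1. Cluster 16, the neutrophil-like cells, was highest for Alox5 (86.5 CPM) and Alox5ap (2243), and clusters 13 and 12 followed for Alox5ap at 1713 and 1561 CPM. Cluster 14, with 118 cells of the macrophage code, was highest for Ptgs2 and Ptges, at 78.0 and 17.3 CPM from 27 and 6 counts, of which the 1 cell above gave 23 of the Ptgs2 counts. By the median over libraries cluster 16 was highest for Ptgs2, at 18.3 CPM. Cluster 14 also stood above the other macrophage clusters for Hpgds (257 CPM) and Tbxas1 (107 CPM).

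**Figure D5:**
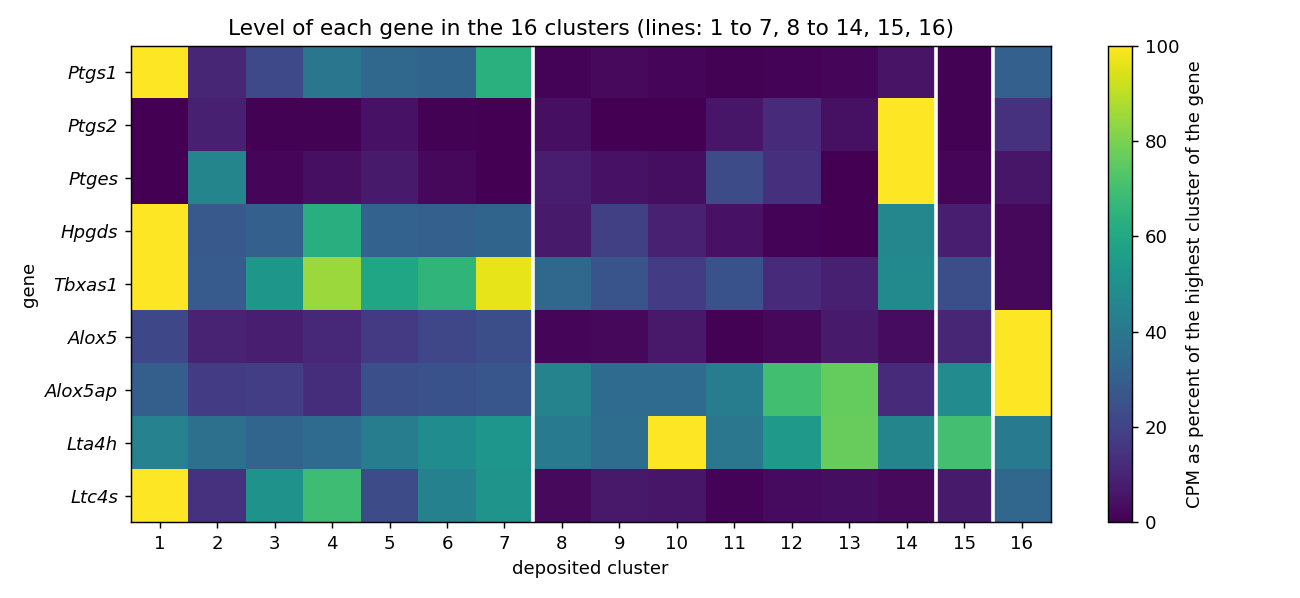
Level of each gene in each deposited cluster, as percent of the gene's highest cluster, with white lines between microglial, macrophage, dendritic-like and neutrophil-like clusters. Cluster 1 is brightest for Ptgs1, Hpgds, Tbxas1 and Ltc4s, cluster 14 for Ptgs2 and Ptges and cluster 16 for Alox5 and Alox5ap.

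Other genes of the pathway came from 6 lists of enzymes, receptors and transporters (72 genes, 71 in the matrices). In microglia 38 were tested, and at D1 against Ctrl 11 were higher and 10 lower, with a median change of 0.63 against -0.01 over all genes; 23.9% of all genes were higher and 22.7% lower. Of the receptors, 3 of 5 tested were higher and 1 lower. Cysltr1, the receptor for cysteinyl leukotrienes, went from 170 ± 9.74 CPM (SD, n = 2) in controls to 13.2 ± 1.98 (n = 3), a change of -2.96 ± 0.39 (adjusted p = 2.53e-05). It was still low at D10, at 37.0 ± 1.81 CPM (n = 3; -1.62 ± 0.36, adjusted p = 0.00626). Ltb4r1, the high-affinity leukotriene B4 receptor, went from 0.898 ± 1.02 to 15.4 ± 7.31 CPM (5.51 ± 0.99, adjusted p = 3.13e-04), and Ptger4, a prostaglandin E2 receptor, from 4.67 ± 2.56 to 15.5 ± 7.24 CPM (2.19 ± 0.52, adjusted p = 0.00252).

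Of the enzymes that act after the members at D1, Ggt5, which converts leukotriene C4 to D4, went from 46.8 ± 6.30 to 2.38 ± 0.654 CPM (-3.70 ± 0.52, adjusted p = 4.25e-05). Hpgd, which inactivates prostaglandins, went from 806 ± 116 to 159 ± 44.4 CPM (-1.69 ± 0.30, adjusted p = 2.84e-04). Ptges3, a cytosolic prostaglandin E synthase that is also a chaperone partner, went from 148 ± 35.4 to 359 ± 75.1 CPM (1.98 ± 0.36, adjusted p = 3.54e-04). Of the 10 tested genes for arachidonate release, 4 were higher and 3 lower at D1, among them Pla2g12a (2.15 ± 0.29) and Pla2g7 (2.54 ± 0.72) higher and Pla2g15 (-1.64 ± 0.34) lower. Over all lists, 11 were higher and 7 lower at D2 (17.6% and 12.2% of all genes), 8 and 7 at D3 (20.1% and 17.6%), 5 and 5 at D10 (8.06% and 2.22%), and 2 and 3 at D21 (6.12% and 0.861%). Against D1, 8 were higher and 6 lower at D3 (8.62% and 10.2%), and 8 and 6 at D10 (33.7% of all genes in either direction). Cysltr1, the organic anion transporter Slco4a1 and the monoacylglycerol lipase Mgll were lower at all 5 times.

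Between macrophages and microglia 16 of 43 list genes tested were higher and 14 lower, against 16.4% and 16.3% of all genes. Of 7 receptors tested 6 were higher and 0 lower in macrophages, while 7 of 10 genes for arachidonate release were lower and 1 higher.

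In macrophages over time 33 of the list genes were tested. None passed at D2 or D3, while at D10 3 were higher (7.31% of all genes were) and 4 lower (7.04%), and at D21 2 were higher (1.95%) and 0 lower (1.61%). Hpgd went from 18.6 ± 10.3 CPM (n = 4) at D1 to 81.8 ± 54.2 (n = 4) at D10 (2.41 ± 0.58, adjusted p = 0.0159) and 91.8 ± 19.99 (n = 2) at D21 (2.60 ± 0.65, adjusted p = 0.0416). Pla2g4a, the cytosolic phospholipase that frees arachidonate, went from 92.2 ± 32.3 to 20.4 ± 4.22 CPM at D10 (-2.11 ± 0.41, adjusted p = 0.00597), and Abcc1, which exports leukotriene C4, from 46.2 ± 17.2 to 7.14 ± 1.46 CPM (-2.59 ± 0.52, adjusted p = 0.00734). Pla2g15 was also higher at both times (1.66 ± 0.41 and 2.28 ± 0.48), Mgst1 was higher at D10 (1.41 ± 0.43), and Fpr2 (-3.68 ± 1.12) and Dpep2 (-1.56 ± 0.36) were lower.

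The genes most like each member were found by Spearman correlation of log2(CPM + 1) over 51 sums of 1 cell type in 1 library, among 7546 genes with a mean of at least 10 CPM. The sums share libraries and cell types, so this is a description. Ptgs1 was most like P2ry13 (0.90), Gpr84 (0.88) and P2ry12 (0.87), and Ltc4s most like Ctc1 (0.87), P2ry12 (0.84) and Rgs10 (0.83). Hpgds was most like C1qc (0.92), Slco2b1 (0.91) and C1qa (0.90), and Tbxas1 most like Itgb5 (0.88), Csf1r (0.87) and Tmem119 (0.86). Alox5ap was most like Ifitm1 (0.88), Fxyd5 (0.88) and Ifitm2 (0.87), and its correlation with Hpgds was -0.82. Alox5 was most like Klhl6 (0.76), Arrb2 (0.74) and Siglecf (0.70), and Lta4h had no gene above 0.67 (Wbp11). Ptgs2 and Ptges were below the mean of 10 CPM.

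Hpgds also differed between sorts in microglia. At all 4 times with both sorts, every mixed library exceeded every resident one: 627 against 341 CPM in controls, 284 and 400 against 147 at D2, 252, 334 and 365 against 107 and 124 at D3, and 303 and 337 against 176 at D10. None of the other 8 genes did so at more than 2 of the 4 times. This is a description with no test, chosen after the values were seen, and sort, strain and sequencing pool cannot be told apart in it.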

How the data were processed

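Single-cell UMI counts were made by the authors from 10x Genomics 3′ libraries of polyA RNA with Cell Ranger 3.1.0 on GRCm38/mm10, per the submitters' processing notes; the annotation, the cell filter and the clustering method are not given in the sources used here. The authors deposited 1 raw count table per library and 1 table with the pool, cluster, cell type code and percent of mitochondrial UMIs of each cell (at most 22.6%). Cells were joined by barcode, and summed counts equalled the deposited totals for all 30958 cells. A further pair of tables of the whole series, of which only part was at hand, was not used here.

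Counts were summed per library and cell type (at least 20 cells). Time was tested with edgeR 4.0.16 (R 4.3.3; quasi-likelihood, TMM, filterByExpr, terms time and sex, two-sided, Benjamini-Hochberg over all genes, threshold 0.05): microglia in 17 sums of resident and mixed libraries (23 to 1500 cells, 135097 to 7794902 UMIs) and macrophages in 15 sums of infiltrating and mixed libraries (28 to 3019 cells, 235999 to 22068469 UMIs). Cell types were tested in 51 sums of 24 libraries with library as a block. CPM were computed with all UMIs of the sum. A marker was called raised at 20 CPM or more and 2 times the other types, after adding 5 CPM. More than 1 type could pass: Ifitm1, a dendritic marker, was raised in both dendritic-like and neutrophil-like cells. Intervals cover counting error only, are exact at 95%, and a count of 0 was set to a floor of 3 counts over the group. An adjusted p beside a ratio of summed counts belongs to the fit and does not test that ratio. The scripts were tested on simulated data.

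Alternatives were DESeq2 1.42.0, median-of-ratios scaling, no filter, at least 50 cells, equal depth, mixed libraries alone, a pool term, D3_conflict 1 added, early or late libraries alone, a replicate block and leaving out each library. A fit with a standard error above 100 was taken as giving no estimate and left out (13 fits, all of Ptgs2 or Ptges under alternatives), a rule set after seeing the values. Scaling by total UMIs and leaving out clusters 2 or 3 were chosen after seeing the data. The members and the gene lists were chosen with earlier results of these data known. Of the pathway lists, called genes were named by size of change, at most 6 per direction, and the 3 genes most like each member were named; Ptgs2 and Ptges fell under the mean of 10 CPM set for that. Of 22439 gene symbols 22226 were in GENCODE M21. The label of D2_infiltrating 1 gives a sex that the sample's code does not; the label was used.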

Additional observations from a re-analysis of the deposited data

Results flagged for a closer look

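In 27 groups of 4 or 5 libraries, 1 library stood far from the others in 3 cases. In each the others were all at 0, where any single value above 0 is picked out, so the usual chance rate of about 1 in 20 groups does not apply. Ptges in macrophages at D10 was at 0.743 CPM in D10_infiltrating 1 (3 counts) and at 0 in the other 3 libraries, and Ptgs2 there was at 0.496 CPM in the same library (2 counts) and at 0 in the others. Ptgs2 in microglia at D3 was at 1.44 CPM in D3_resident 2 (3 counts) and at 0 in the other 4 libraries.

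The library with conflicting labels, D3_conflict 1, was not part of the comparisons, and some of its levels lay above the highest control library. Control libraries hold microglia only, so cell type and injury cannot be told apart in this. In its macrophages Ptgs2 was at 3.56 CPM (87 counts; at most 0.539 in control microglia), Ptges at 2.66 CPM (0 in controls) and Alox5ap at 1181 CPM (at most 775). In its dendritic-like cells Alox5ap was at 1153 CPM. In its neutrophil-like cells Alox5 was at 78.0 CPM (at most 29.1 in controls), Alox5ap at 1721 CPM and Ptgs2 at 3.95 CPM. Of these 7 levels, all except that of Ptgs2 in neutrophil-like cells lie within the range of the D1 and D2 libraries of the same cell type.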

How the results depend on the processing

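The counts are of members called (adjusted p under 0.05), and the cause of each shift was not tested. Leaving out 1 library gave 3 to 4 members in microglia (D1), 0 to 1 (D2), 1 (D3), 1 to 2 (D10), 0 to 2 (D21), 1 to 3 for D3 against D1 and 3 to 5 for D10 against D1. In macrophages it gave 0 at D2, 0 to 1 at D3, 1 to 3 at D10 and 0 to 1 at D21. Between cell types it gave 6 to 8 for macrophages against microglia, 2 to 3 for dendritic-like cells against macrophages, 5 to 6 against microglia, 4 to 6 for neutrophil-like cells against macrophages, 4 to 5 against microglia and 5 to 6 against dendritic-like cells.

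Under total UMIs microglia had 7 members (D1), 2 (D2), 3 (D3), 4 (D10) and 4 (D21), and Alox5ap at D1 turned to -0.54. At equal depth, where fewer counts remain, there were 0 for dendritic-like cells against macrophages, 3 for neutrophil-like cells against microglia, 1 in microglia at D21, 1 for D3 against D1 and 2 for D10 against D1. With no filter there were 0 in microglia at D21, and 5 in macrophages at D10 and 2 at D21. Without cluster 2 there were 0 in microglia at D21 and 1 for D3 against D1, and without clusters 2 and 3 there were 0 in macrophages at D21. A pool term gave 0 in microglia at D3 and 0 in macrophages at D21, and could not be fitted for microglia at D1 and D21 or macrophages at D10. Mixed libraries alone gave 2 in microglia at D1, 0 at D10 and 1 at D21, and in macrophages 2 at D3, 2 at D10 and 0 at D21. In macrophages at D10 median-of-ratios scaling gave 2, DESeq2 6, sums of 50 cells 2 and D3_conflict 1 added 4, and DESeq2 gave 2 at D21. D1 to D3 libraries alone gave 5 for dendritic-like cells against macrophages. D10 and D21 libraries alone gave 4 for macrophages against microglia and 0 for dendritic-like cells against macrophages.

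Over single genes, 1267 of the values for called members kept their call and 83 lost it, with none reversed; of values not called, 67 became so and 1 reversed. For Ptgs2 and Ptges 13 alternative fits gave no estimate and are in none of these counts. With the replicate block in male mixed libraries 3 members were called for D3 against D1 and 4 for D10 against D1, as many as in the same libraries without it; the fit of all 17 libraries called 2 for D3 against D1. Of 7 pairs with the same number 2 correlated above 0.1. Pairs with different numbers were not compared, so whether the numbers pair libraries is not settled.

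Over all genes, 1111 passed in microglia at D10, 2655 under total UMIs, 361 at equal depth, 2404 with a pool term and 71 in mixed libraries alone. At D21 754 passed, 2162 under total UMIs and 219 at equal depth. At D1 5034 passed; at equal depth it was 1529, and with mixed libraries only 1206. In macrophages 305 passed at D21, 781 with DESeq2, 513 with no filter, 47 without clusters 2 and 3, 29 with a pool term and 30 in mixed libraries alone, where 860 passed at D3. Ptgs2, Ptges and, in macrophages, Alox5 rest on few counts.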
